A study of Mus musculus with 6 samples.

Results

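The 10 genes described here encode sulfotransferases that place sulfate on N-acetylglucosamine (GlcNAc), N-acetylgalactosamine (GalNAc), galactose or glucuronic acid at the ends or along the arms of glycans. They are Chst1, Chst2, Chst4, Chst5, Chst8, Chst9, Chst10, Gal3st1, Gal3st2 and Gal3st3. They were chosen by name, and all 10 were found among the 909 genes that could be named in the array table, each through 1 probe set, a group of probes summarised to 1 value. RNA came from MLE-15, an established line of mouse lung epithelial cells immortalised with the SV40 large T antigen. There were 3 arrays of control cells without PMA and 3 arrays of cells given PMA at 10 nM for 24 h, a dose and time stated for the series and not on the sample labels. PMA, a phorbol ester, switches on protein kinase C, and the series asked whether sulfotransferases are present and induced by it. The labels describe no separate cultures behind the replicates, so the errors below reflect differences among these arrays and could be purely technical.

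Sulfation is a late step of glycan synthesis. In the Golgi, each enzyme takes sulfate from the donor PAPS and passes it to 1 position of 1 kind of sugar. On GlcNAc and galactose of N-acetyllactosamine chains the product is keratan sulfate or, with fucose and sialic acid added, the sulfated sialyl Lewis x epitope that takes part in leukocyte homing. Sulfate on GalNAc marks pituitary glycoprotein hormones for clearance, sulfated glucuronic acid forms the HNK-1 epitope of nerve cells, and sulfated galactose forms the glycolipid sulfatide and sulfated mucins. Airway mucins carry sulfate on both GlcNAc and galactose.

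A level here is the RMA value of a probe set, a log2 number in which 1 unit is a doubling. A probe set's level depends on its own probes, so levels are compared between arrays and not between genes. The table gave no detection calls, and no gene was called present or absent. Array medians lay between 5.64 and 5.71 and lower quartiles between 4.32 and 4.43. Chst9 and Gal3st2 lay below the lower quartile on all 6 arrays, and Chst8 did so on 3. The probe sets of Chst4, Chst8 and Gal3st1 carry the suffix s, which marks probes that can bind several transcripts. Gal3st2 has the neighbours Gal3st2b and Gal3st2c in RefSeq, related copies whose RNA the probe set may also bind.

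The arrays carry replicate numbers 1, 2 and 3 in both groups, and the labels do not say what a number stands for. The short names of numbers 2 and 3 end in a letter and write the line as MLE15. Those of number 1 have no such letter and write it as MLE-15. Number 1 stood apart in both groups. Between 110 and 125 of the 1246 probe sets differed by more than 1 log2 unit between a number 1 array and any other array, while control 1 and PMA 1 differed by that much in 1 probe set and the other 4 arrays in 0. Lung epithelial markers were represented by 2 of 13, Sftpa1 and Sftpd, so the labelled cell type could be checked only against these. Their mean level was 4.65 to 4.70 in the number 1 arrays and 4.29 to 4.44 in the others. Leukocyte markers (6 of 14 measured) averaged 4.87 to 5.02 in number 1 and 5.34 to 5.42 in the others, endothelial markers (6 of 10) 5.11 to 5.25 and 5.49 to 5.54, fibroblast markers (3 of 8) 4.92 to 5.12 and 5.56 to 5.94, and nerve and glial markers (3 of 8) 5.44 to 5.46 and 5.31 to 5.42. These averages rest on few genes. By limma, 1 of 6 leukocyte markers was lower in number 1 (Mrc1 of macrophages, -2.74 log2 units) and 5 were not called, with a list median of 0.024. Of the fibroblast markers, 1 of 3 was lower (Dcn, -2.31) and 2 were not called (median 0.074). Of the endothelial markers, 2 of 6 were lower (Pecam1, -1.37, and Sele, -1.13), 1 was higher (Selp, 0.39) and 3 were not called (median 2.49e-04). The surfactant gene Sftpa1 was higher (0.52), but it ranged only from 3.29 to 3.89, below the lower quartile on every array. Of the nerve and glial markers, 0 of 3 were called. Over all probe sets, 41.7% were called in this comparison. No marker is at 0 on this scale, since every probe set has a log2 value, and the part of these marker shifts in the results below was not tested. All arrays are labelled as the 1 line MLE-15, and whether other cell types were present was not tested. In bulk RNA, fewer cells of a type and less RNA per cell cannot be told apart.

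The bases before the gene start are shown for 3 of the 4 genes whose level differed with the replicate number, since they lie next to the transcripts that moved. The window of Chst1, the other such gene, lies inside the span of the gene and is not shown. The sequences are taken from RefSeq, build GRCm38.p6, all on the minus strand and written 5′ to 3′ in the direction of the gene, and stop before the outermost start of the gene. Capitals mark matches, on either strand, to the Sp1 motif GGGCGG.
Chst2, chr9:95407271-95407520: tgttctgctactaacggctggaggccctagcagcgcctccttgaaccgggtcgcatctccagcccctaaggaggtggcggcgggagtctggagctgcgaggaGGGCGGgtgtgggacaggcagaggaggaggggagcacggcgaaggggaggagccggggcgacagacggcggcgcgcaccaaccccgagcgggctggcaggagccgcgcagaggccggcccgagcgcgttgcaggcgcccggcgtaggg
Chst8, chr7:34812712-34812961: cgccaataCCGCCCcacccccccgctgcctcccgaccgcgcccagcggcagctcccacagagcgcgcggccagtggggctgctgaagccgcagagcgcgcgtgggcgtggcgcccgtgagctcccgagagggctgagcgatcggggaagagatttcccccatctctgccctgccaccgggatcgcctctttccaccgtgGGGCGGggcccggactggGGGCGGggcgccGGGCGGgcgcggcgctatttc
Chst4, chr8:110039402-110039584: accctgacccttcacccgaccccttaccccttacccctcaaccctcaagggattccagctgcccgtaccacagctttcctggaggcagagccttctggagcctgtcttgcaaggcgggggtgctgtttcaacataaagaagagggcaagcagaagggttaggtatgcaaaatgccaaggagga
Windows of 250 bases before the start were held for 8 of the 10 genes. The windows of Chst2 and Chst8 had 72.8% and 75.6% G and C with 27 and 32 CG dinucleotides, against a median of 52.4% and 6 over 32536 windows. Those of Chst4 had 56.4% and 5, and of Chst1 51.6% and 1. Of the genes outside these 4, Chst5 had 71.6% and 16, Chst10 48.8% and 13, and Gal3st2 51.6% and 1. The windows of Gal3st1 had 56% to 66.8% and 2 to 12. GGGCGG was found 1 time for Chst2, 4 times for Chst8 and 3 times for Chst5, and 33.0% of all windows hold it.

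The AP-1 motif was searched in the same windows on both strands because PMA was the treatment. The pattern used, TGANTCA with N any base, is looser than the phorbol ester response element, where N is G or C. This looser pattern occurs in 6.73% of all windows. It was found for 1 of these genes, Chst4, from 59 to 53 bases before the start that the table gives. This match lies inside the span of the gene, downstream of its outermost start and so beyond the end of the window shown for Chst4. That stretch is shown with the motif in capitals and 10 bases on each side.
Chst4, chr8:110039377-110039403: gaggagttcaTGAGTCAgagagagaac
The TATA motif TATAAA, which 12.3% of all windows hold, was found in none of the windows of these genes. These matches describe letters only, and no binding was measured.

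PMA and control arrays were compared first, to see whether any of these enzymes was induced. None of the 10 passed the test. By limma with Benjamini-Hochberg adjustment over all 1246 probe sets, 0 of 10 were called, and 0 reached an unadjusted p under 0.05. Of all probe sets, 0% were called and 4 (0.321%) reached that unadjusted p. A fit that took the replicate number as a block also called 0 of 10, with 0 under an unadjusted 0.05, where the shares of all probe sets were 0% and 3.37%. Control and PMA arrays overlapped for each of the 10, while 3.37% of all probe sets had groups that did not. The mean was higher with PMA for 5 of the 10 genes and lower for 5, and it was higher for 52.2% of all probe sets. Their differences had a median of -0.010 log2 units and a median size of 0.053, where the median size over all probe sets was 0.050.

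**Figure D1:**
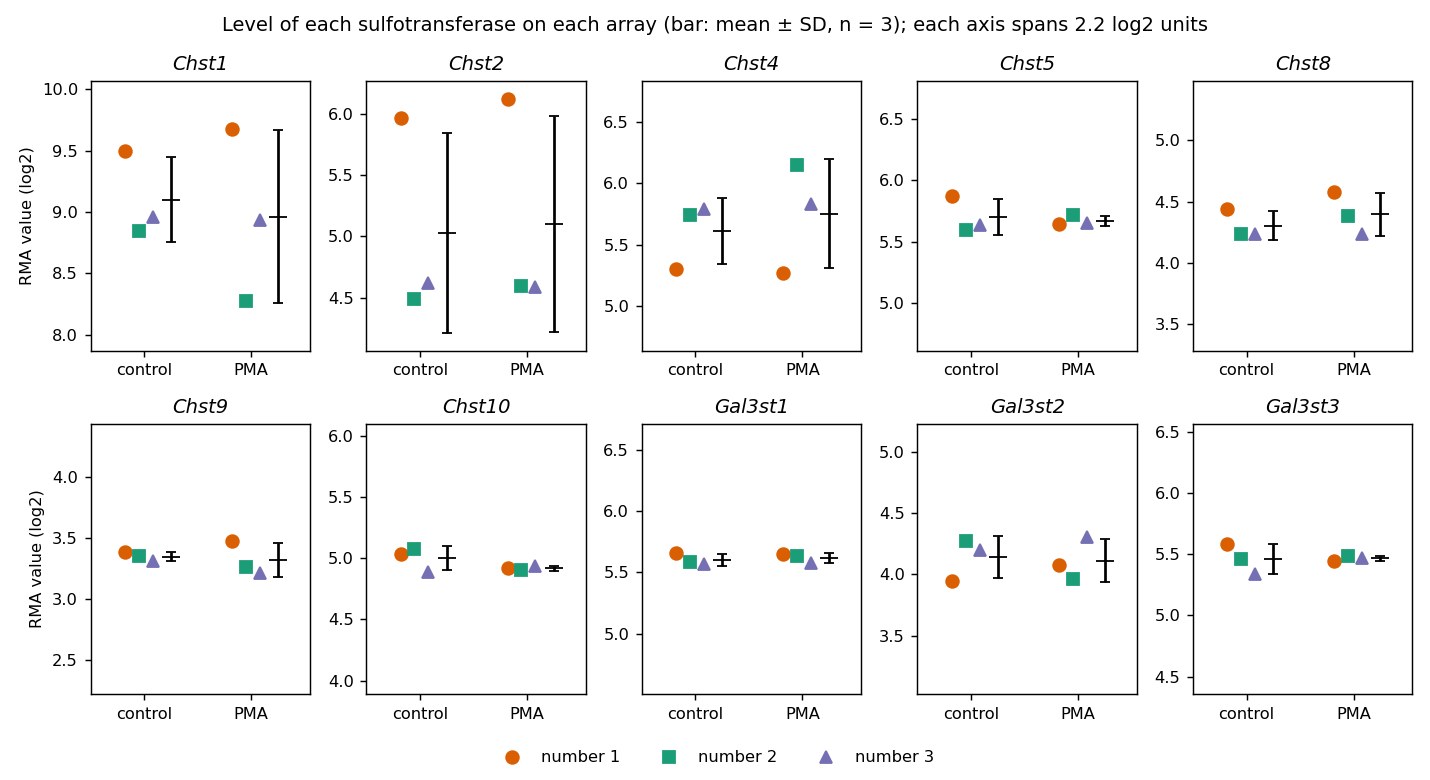
RMA value (log2) of each of the 10 genes on each array, with control and PMA on the horizontal axis, 1 symbol per replicate number and the mean ± SD (n = 3) beside them. All panels span the same number of log2 units. Number 1 is the highest symbol of Chst1 and Chst2 and the lowest of Chst4 in both groups, while the number 1 symbols of Gal3st1 lie at 5.65 in both groups, within 0.1 of the others.

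Among the enzymes that sulfate GlcNAc and galactose of N-acetyllactosamine chains, Chst2 (GlcNAc6ST-1), an enzyme of broad distribution that makes sulfated sialyl Lewis x, stood at 5.96, 4.49 and 4.62 in control arrays 1, 2 and 3. In PMA arrays 1, 2 and 3 it stood at 6.12, 4.60 and 4.58. The number 1 array was the highest in both groups, and the groups overlapped. The means were 5.03 ± 0.81 and 5.10 ± 0.88 (SD, n = 3), a difference of 0.075 log2 units (SE 0.59). Within numbers 1, 2 and 3 the difference was 0.16, 0.11 and -0.039.

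Chst1, the galactose 6-O-sulfotransferase of keratan sulfate, stood at 9.50, 8.85 and 8.96 in the control arrays and at 9.68, 8.27 and 8.93 in the PMA arrays. PMA 2 was the lowest of the 6 arrays, and its difference of -0.57 from control 2 was the largest in size within any number among these genes. The other numbers gave 0.18 and -0.023. The means were 9.10 ± 0.35 and 8.96 ± 0.70 (SD, n = 3), a difference of -0.14 (SE 0.39).

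Chst4 (GlcNAc6ST-2), known from high endothelial venules, where it sulfates O-glycans of mucins, stood at 5.30, 5.74 and 5.79 in control and at 5.27, 6.15 and 5.83 in PMA arrays. The number 1 arrays were the lowest in both groups and PMA 2 was the highest of all, 0.41 above its control. The means were 5.61 ± 0.27 and 5.75 ± 0.45 (SD, n = 3), a difference of 0.14 (SE 0.26), the PMA difference of largest size among the 10. Numbers 1 and 3 gave -0.027 and 0.037, so this mean rests on number 2, and without PMA 2 it was -0.061.

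Chst5, the intestinal GlcNAc 6-O-sulfotransferase, which in the mouse also serves keratan sulfate of the cornea, stood at 5.87, 5.59 and 5.64 in control and at 5.64, 5.71 and 5.65 in PMA arrays. Control 1 was the highest and the other 5 arrays lay within 0.12 of each other. Its difference was -0.030 (SE 0.091), with -0.23, 0.12 and 0.016 in numbers 1, 2 and 3.

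The GalNAc 4-O-sulfotransferases Chst8 and Chst9, which act on the GalNAc-GlcNAc unit of hormone and other glycans, were among the dim probe sets. Chst8 stood at 4.44, 4.23 and 4.24 in control and at 4.58, 4.38 and 4.23 in PMA arrays, with number 1 the highest of each group. Its PMA difference was 0.095 (SE 0.12), with 0.14, 0.15 and -0.0064 in the numbers. Chst9 stood at 3.38, 3.35 and 3.31 in control and at 3.47, 3.26 and 3.22 in PMA arrays, a difference of -0.029 (SE 0.087). The PMA arrays of Chst9 held both its highest and its lowest values.

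Chst10, the HNK-1 sulfotransferase, stood at 5.03, 5.08 and 4.89 in control and at 4.92, 4.90 and 4.94 in PMA arrays. The PMA values lay within 0.036 of each other and above the lowest control value. The means were 4.998 ± 0.099 and 4.92 ± 0.018 (SD, n = 3), a difference of -0.082 (SE 0.071). Its numbers gave -0.12, -0.18 and 0.048.

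Among the galactose 3-O-sulfotransferases, Gal3st1, the cerebroside sulfotransferase that makes sulfatide, varied least of the 10 genes, with 5.65, 5.58 and 5.57 in control and 5.65, 5.64 and 5.57 in PMA arrays. Its difference was 0.019 (SE 0.059). Gal3st2, which sulfates galactose of O- and N-glycans, stood at 3.94, 4.27 and 4.20 in control and at 4.07, 3.96 and 4.30 in PMA arrays. Control 1 and PMA 2 were its lowest arrays, so the numbers gave 0.13, -0.31 and 0.10 and a mean difference of -0.026 (SE 0.13). Gal3st3, a related enzyme of glycoprotein galactose, stood at 5.58, 5.46 and 5.33 in control and at 5.45, 5.48 and 5.46 in PMA arrays, a difference of 0.0049 (SE 0.080). All 3 of its PMA arrays lay inside the range of the control arrays.

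No gene of the 10 had a PMA difference of the same sign in all 3 numbers, which 23.1% of all probe sets had. The intervals bound what these arrays could have missed. With the block, the 95% intervals of the 10 differences lay between -0.42 and 0.35 log2 units, or 0.746 to 1.27 times the control level of measured signal. All 10 lay within 0.58 of 0, as 99.7% of all probe sets did, and 8 lay within 0.26, as 74.6% did. In a fit that replaced the block by 1 term for number 1, 10 of 10 and 99.6% lay within 0.58. Without the block, 8 of 10 lay within 1 unit of 0, against 88.6% of all probe sets. The exceptions were Chst1 (-1.11 to 0.84) and Chst2 (-1.41 to 1.56), whose SEs fell from 0.39 to 0.13 and from 0.59 to 0.070 with the block. Chst4 had the smallest blocked p of the 10 (unadjusted p = 0.159, limma adjusted p = 0.992).

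**Figure D2:**
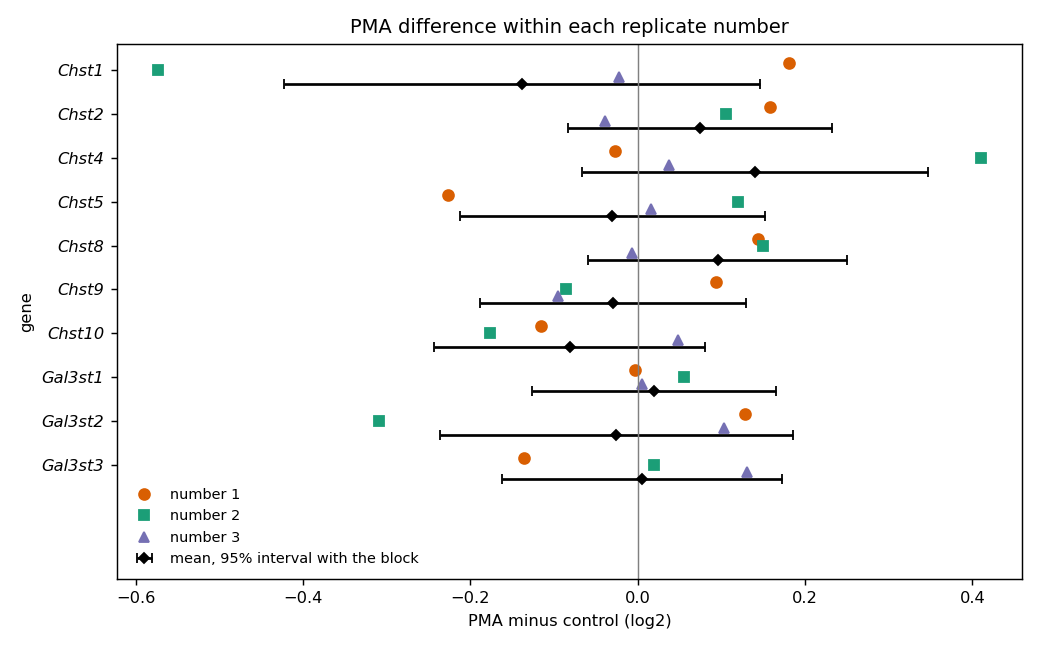
PMA minus control (log2, horizontal axis) for each gene (vertical axis) within replicate numbers 1, 2 and 3, with the mean and its 95% interval from the fit with the replicate number as a block. Every interval includes 0, and the points farthest from 0 are those of number 2 for Chst1 (-0.57), Chst4 (0.41) and Gal3st2 (-0.31).

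The number 1 arrays were then compared with those of numbers 2 and 3, with PMA as a term in the model. This sets 1 pair of arrays against 2 pairs, chosen with the separation already known, and its p-values describe these arrays only. The GlcNAc and galactose enzymes Chst2 and Chst1 were 2.77-fold and 1.78-fold higher in number 1, Chst8 was 1.18-fold higher, and Chst4 was 1.51-fold lower. By limma with Benjamini-Hochberg adjustment, 4 of 10 genes were called, 3 higher and 1 lower, where 41.7% of all probe sets were called, 27.5% higher and 14.1% lower. The count among these genes is thus near the share over all probe sets. That share differs with brightness, which was not matched here. In a fit to the brighter probe sets alone, 380 of 623 were called, and only Chst1 of these genes was among those tested. Of the calls over all probe sets, 343 were higher and 176 lower (66.1% higher), and with the table quantile-normalized they were 278 and 232 (54.5% higher), with 2 higher and 1 lower among the 10 genes. The mean was higher in number 1 for 8 of the 10, as for 65.5% of all probe sets. The differences had a median of 0.093 log2 units and a median size of 0.16, where all probe sets had 0.079 and 0.17.

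Chst2 averaged 6.04 in number 1 and 4.57 in the other 4 arrays, which spanned only 4.49 to 4.62. The difference was 1.47 log2 units (SE 0.072; adjusted p = 5.98e-08 by limma), and it was 1.41 among control arrays and 1.53 among PMA arrays. Chst2 was the only one of the 10 with a difference over 1 unit, which 9.23% of all probe sets had. Its lower number 1 array lay 1.34 above the highest of the others.

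Chst1 averaged 9.59 in number 1 and 8.75 in the others, a difference of 0.83 (SE 0.16; adjusted p = 0.00181 by limma). The other arrays ranged from 8.27 to 8.96, with PMA 2 the lowest, and outside number 1 Chst1 varied most of the 10 genes. The difference was 0.59 in control and 1.07 in PMA arrays. Without PMA 1 it was 0.59 and did not pass (adjusted p = 0.0915 by limma).

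Chst4 averaged 5.29 in number 1, where both arrays lay within 0.027 of each other, and 5.88 in the others. The difference was -0.59 (SE 0.099; adjusted p = 5.83e-04 by limma), with -0.47 in control and -0.72 in PMA arrays. Chst2 and Chst4 both add sulfate to GlcNAc, and they differed in opposite directions.

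Chst8 averaged 4.51 and 4.27, a difference of 0.24 (SE 0.072; adjusted p = 0.0211 by limma). Its lower number 1 array lay 0.056 above PMA 2, the highest of the others. This call was lost without control 1 (adjusted p = 0.0745 by limma), without PMA 1 (0.172) and without PMA 3 (0.0608), and after quantile normalization of the table (0.0770).

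The other 6 genes did not pass. Chst9 and Gal3st1 had both number 1 arrays above the rest, by 0.033 and 0.016 at the narrowest, with differences of 0.14 (SE 0.072) and 0.064 (SE 0.066). Counting these, 6 of 10 genes had number 1 arrays that did not overlap the others, against 55.9% of all probe sets. They were 5 with number 1 higher (37.8% of all probe sets) and 1 with it lower (18.1%). Chst5 and Gal3st3 differed by 0.11 (SE 0.081) and 0.078 (SE 0.077), positive among control arrays (0.25 and 0.18) and negative among PMA arrays (-0.040 and -0.027). Chst10 differed by 0.024 (SE 0.075) and Gal3st2 by -0.18 (SE 0.10). Without PMA 2, Gal3st2 differed by -0.26 and passed (adjusted p = 0.0114 by limma). The 95% intervals of these 6 genes lay between 0.758 and 1.23 times the level in numbers 2 and 3.

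Whether the PMA difference depended on the number was tested as an interaction. For the 10 genes it ran from -0.29 for Chst5 (SE 0.13; unadjusted p = 0.0531) to 0.48 for Chst1 (SE 0.33). By limma 0 of 10 passed, with adjusted p from 0.743 to 0.969 and 0 at an unadjusted p under 0.05, against 0.0803% and 5.62% of all probe sets.

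**Figure D3:**
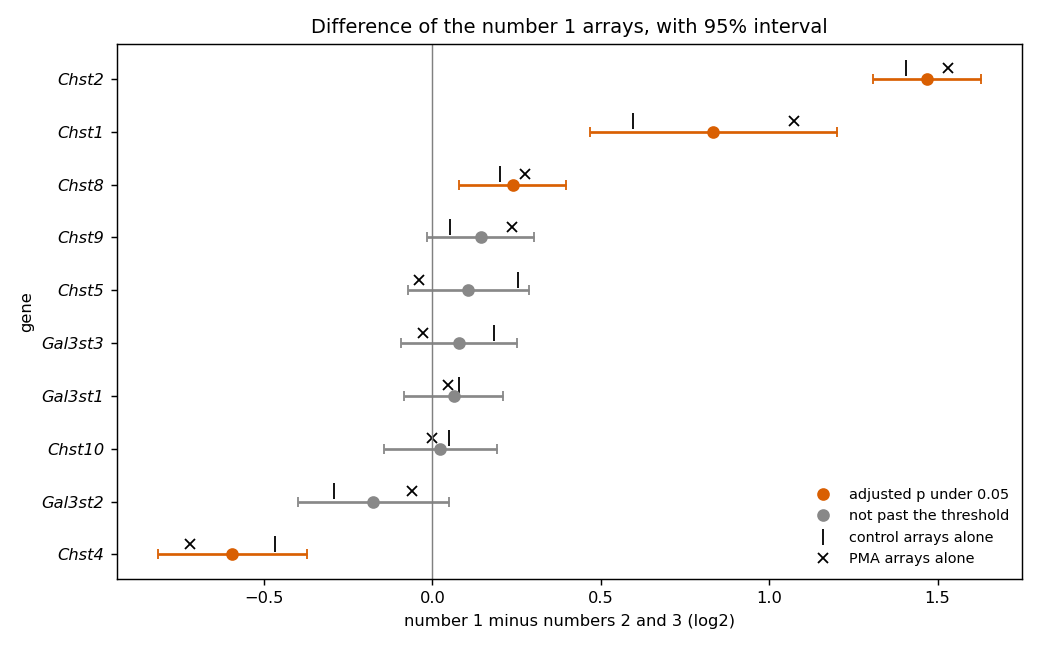
Number 1 minus numbers 2 and 3 (log2, horizontal axis) for each gene (vertical axis), with limma's 95% interval and the same difference within control arrays (bars) and PMA arrays (crosses) above it. Chst2 at 1.47, Chst1 at 0.83, Chst8 at 0.24 and Chst4 at -0.59 passed the adjusted test, and their control and PMA values lie on the same side of 0.

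The genes with the most similar pattern were found by the root mean square difference of mean-centred log2 values over the 6 arrays. For Chst2 they were Pmm1 (0.081), Fzd7 (0.12) and Bmp1 (0.12), which were higher in number 1 by 1.39, 1.29 and 1.35. For Chst1 they were the galectin Lgals3 (0.16), Anapc1 (0.17) and Cd74 (0.17), each with PMA 2 as its lowest array, as Chst1 had. For Chst4 they were Gmds (0.062), the sterol enzyme Msmo1 (0.062) and Hs3st3a1 (0.074), a heparan sulfate 3-O-sulfotransferase. Each of these had PMA 2 as its highest array. The separate number 1 pair and PMA 2 enter each of these measures, since all share the same 6 arrays. Sharing the extreme PMA 2 value thus follows in part from how these genes were picked.

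The steps around these enzymes were measured too. For PMA, limma called 0 genes in each of the lists that follow, without and with the block. Of 23 other Golgi sulfotransferases measured (27 listed), which act on heparan, chondroitin and dermatan sulfate or on protein tyrosine, 13 were higher and 3 lower in number 1, where 27.5% of all probe sets were called higher and 14.1% lower. The largest were Ust, the uronyl 2-O-sulfotransferase, at 1.71 (SE 0.089), and Hs3st1 at -1.11 (SE 0.11). Their median was 0.21, against 0.093 for the 10 genes and 0.079 over all probe sets. Of the genes that supply PAPS, 3 of 8 were measured and 0 passed in number 1, where 41.7% of all probe sets did. The PAPS synthases Papss1 and Papss2 differed with number 1 by -0.17 (SE 0.068) and 0.15 (SE 0.094), and the Golgi PAPS transporter Slc35b3 by -0.048 (SE 0.077).

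The sulfatases that remove such esters in lysosomes were higher in number 1 for 3 of 3 measured, as 27.5% of all probe sets were, and the other 3 of 6 listed were not measured. Arsa, which acts on sulfatide made by Gal3st1, differed by 1.40 (SE 0.10), Galns, which acts on galactose 6-sulfate of keratan sulfate made by Chst1, by 0.68 (SE 0.072), and Arsb by 0.62 (SE 0.093). Arsa stood at 9.50, 7.91 and 7.98 in control and at 9.41, 8.30 and 8.002 in PMA arrays, with no overlap between number 1 and the rest.

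The enzymes that build the acceptor chains gave calls in both directions. Of 13 measured (14 listed), 6 were higher and 3 lower in number 1, against 27.5% and 14.1% of all probe sets. B3gnt7, which extends keratan sulfate chains, was higher by 1.99 (SE 0.073), at 7.97 and 7.90 in number 1 against 5.88 to 6.03 in the others. B3gnt3, which extends core 1 O-glycans, was lower, with a difference of -1.40 (SE 0.11), at 7.55 and 7.40 against 8.57 to 9.01. Of the keratan sulfate core proteins, 3 of 8 were measured and 1 was lower in number 1, as 14.1% of all probe sets were. It was Acan, the cartilage proteoglycan aggrecan (-2.57, SE 0.079). Lum and Fmod were not called and differed by 0.074 (SE 0.067) and 0.016 (SE 0.071).

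Of the genes that cap or carry sulfated sialyl Lewis x, 9 of 10 were measured, and 1 passed in number 1, against 41.7% of all probe sets. It was Gcnt1, the core 2 branching enzyme, with a difference of -0.92 (SE 0.088). Glycam1, a carrier of Chst4 products in high endothelial venules, differed by 0.16 (SE 0.093). All 9 had a higher mean with PMA, as 52.2% of all probe sets did, with a median of 0.053 and a largest difference of 0.14 in St3gal4, and 0 of 9 had an unadjusted p under 0.05 without or with the block. Of the HNK-1 genes, 4 of 8 were measured and 0 passed in number 1, against the same 41.7%. In number 1, L1cam differed by -0.13 (SE 0.073) and Mag by 0.10 (SE 0.074). With the block, B3gat2, which adds the glucuronic acid that Chst10 sulfates, had a PMA difference of 0.19 (unadjusted p = 0.0371, limma adjusted p = 0.992). L1cam, a carrier of the epitope, had a PMA difference of -0.17 (unadjusted p = 0.0414, limma adjusted p = 0.992). With the block, 3.37% of all probe sets had an unadjusted p under 0.05. B3gat2 lay below the lower quartile on every array, and its difference in number 3 was -0.0014. Among the other Golgi sulfotransferases, Chst7 had a blocked PMA difference of -0.18 (unadjusted p = 0.0221, limma adjusted p = 0.992). It had 1 sign in all 3 numbers. Of the genes for making and breaking down the lipids of the sulfatide pathway, 5 of 7 were measured. In number 1, 1 was higher, 1 lower and 3 not called, where 27.5% of all probe sets were called higher and 14.1% lower. Galc, which breaks down galactosylceramide, was higher in number 1 by 0.79 (SE 0.075), and Ugcg, which makes glucosylceramide in place of it, was lower (-0.95, SE 0.071). Ugt8a, which makes the substrate of Gal3st1, differed by 0.081 (SE 0.067).

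**Figure D4:**
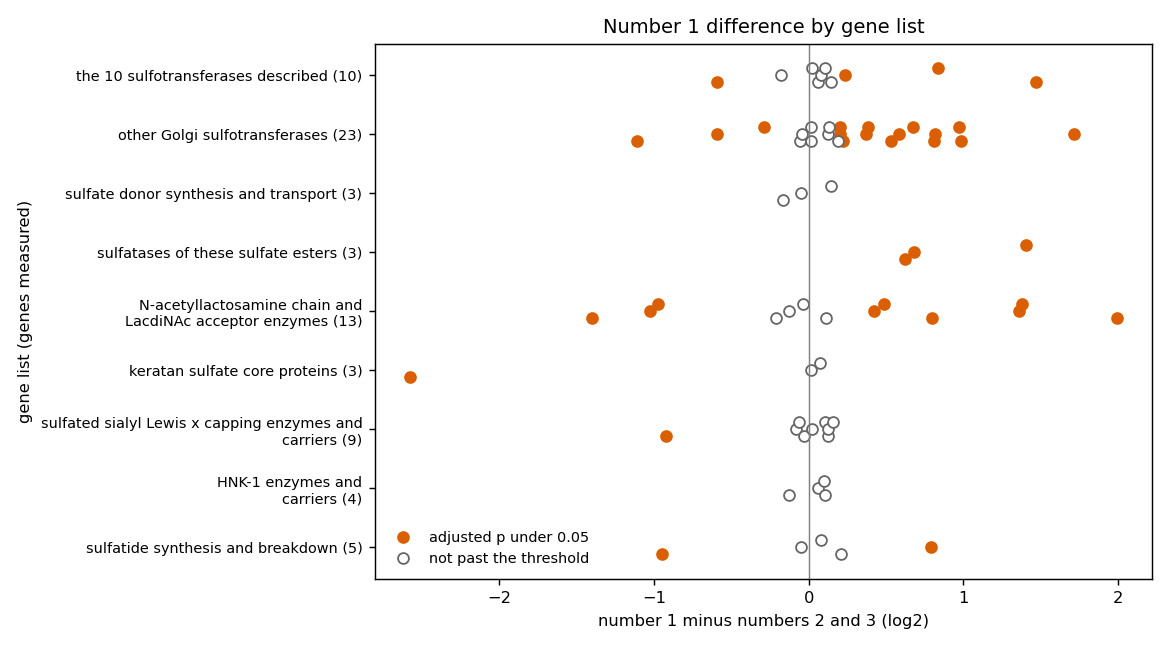
Number 1 minus numbers 2 and 3 (log2, horizontal axis) for each measured gene of each list (vertical axis, with the number measured). Filled points passed the adjusted test. They lie on both sides of 0 for the 10 genes, the other Golgi sulfotransferases, the chain enzymes and the sulfatide genes. For the 3 sulfatases they lie above 0.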

How the data were processed

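Affymetrix arrays measured RNA from 3 control and 3 PMA samples of MLE-15 cells. The deposited values are log2 RMA values, which correct background, quantile-normalize arrays and summarise probes, as made by the authors per the submitters' processing notes. The sources used here name no RMA version, array or filter. Because RMA quantile-normalizes arrays, a shift of all transcripts together would be hidden or reduced. The values of these probe sets still differed in distribution, with array upper quartiles from 7.86 to 8.05. Quantile-normalizing the table itself lowered the number 1 difference of Chst1 from 0.83 to 0.63.

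Of 1246 probe sets, 963 were named through the RefSeq accession in their names, matched without versions to the RefSeq table of assembly GRCm38.p6, and 283 were not. The probe set of highest mean stands for a gene, though each of the 10 genes had 1. Values were used as deposited and fitted with limma 3.58.1 in R 4.3.3 (lmFit, eBayes), with Benjamini-Hochberg adjustment over all probe sets and a threshold of 0.05. SE is limma's moderated standard error. Having only 6 arrays limits precision.

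The members, gene lists and comparisons were chosen with earlier results of these data known. Named genes were the 10 members, in each list the 2 genes with the largest absolute number 1 difference, and for 3 members the 3 genes nearest in pattern. Arsb, Fmod, Slc35b3, St3gal4, B3gat2, Chst7, Ugt8a and the markers were named after their values were seen. A gene of these lists was left out and is not reported here.

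Deviations from the group mean correlated across probe sets at 0.956, 0.815 and 0.912 between same-numbered arrays, all above 0.1, so the numbers were taken as pairs and a block was fitted beside the unblocked test. Much of this comes from number 1, since the difference of control 2 from control 3 and that of PMA 2 from PMA 3 correlated at 0.041. Arrays of different numbers also correlated, control 2 with PMA 3 at 0.886 and control 3 with PMA 2 at 0.838. Passing 0.1 therefore cannot show that numbers 2 and 3 are pairs. The procedure was tested on simulated data on 1246 probe sets. In these, 50 probe sets were changed at each of 0.26, 0.58, 1 and 2 log2 units, and 1046 were unchanged. A change of 0.58 log2 units was called in 62% of 50 probe sets without the block, 84% with it and 86% for number 1. With many probe sets changed at once, the adjusted threshold is easier to pass. These rates therefore may overstate the sensitivity to a change in a single gene. Alternatives covered normalization, a filter on dim probe sets, the variance prior, the averaging of probe sets, the model terms and leaving out each array. Promoter windows were read in the gene's direction. In 1629 overlaps of windows on opposite strands, all matched as reverse complements over 50 bases.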

Additional observations from a re-analysis of the deposited data

How the results depend on the processing

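With PMA, 0 of the genes and 0 of the probe sets tested passed under each of 14 alternatives, including the replicate block and the 1 term for number 1, which was added after seeing the data. The filter on brightness tested only 1 of the 10 genes (Chst1) and 623 probe sets. The block changed no call. Signs of these small differences turned in 14 of 60 values with 1 array left out, where the differences ran from -0.50 to 0.21 for Chst1, -0.44 to 0.54 for Chst2, -0.061 to 0.38 for Chst4, -0.083 to 0.054 for Chst5, -0.11 to 0.022 for Chst9, -0.12 to 0.049 for Gal3st2 and -0.058 to 0.066 for Gal3st3. Other settings turned 3, Gal3st3 to -0.0075 with arrays centred on their medians, Gal3st1 to -0.0011 after quantile normalization and Chst5 to 0.068 with numbers 2 and 3 only.

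For number 1, the count of genes called was 2 to 5 with 1 array left out, 2 without PMA 1, and 1 of the 1 gene tested (Chst1) when only probe sets at or above the median brightness were kept. Over all probe sets, the count with 1 array left out ran from 403 to 543. Chst2 and Chst4 passed in each alternative in which they were tested, at 1.40 to 1.53 and -0.72 to -0.47. Chst1 passed in 11 of 12 and Chst8 in 7 of 11. Chst10 turned to -0.016 with median centring and -0.0023 after quantile normalization. With 1 array left out, Chst10 ran from -0.020 to 0.061, Chst5 from -0.040 to 0.25 and Gal3st3 from -0.027 to 0.18. A lone number 1 array is assumed to vary like the others. Signal over background is unknown, which limits the dim probe sets Chst8, Chst9 and Gal3st2. The same limit holds for Ugt8a, Lum, Glycam1, B3gat2 and Sftpa1, which lay below the lower quartile on every array. A small difference in these need not mean an unchanged transcript.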
